A study of Mus musculus with 30 samples.

Results

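The comparison described here is that of MIA (maternal immune activation) against Saline microglia at P20, postnatal day 20, shortly before weaning. Its members were chosen by age and prenatal treatment alone and are 6 of 30 libraries in the series, 3 P20 Saline and 3 P20 MIA. All 6 came from C57BL/6J offspring without a transgene or a drug of their own. The dams of the MIA offspring had been injected at mid-gestation with poly(I:C), double-stranded RNA made to mimic a viral infection, and the dams of the Saline offspring with saline. Each P20 library held the RNA of microglia from 1 whole brain, pulled out with magnetic beads against CD11B, a surface protein that other myeloid cells and natural killer (NK) cells also carry. The labels give neither sex nor litter nor batch, so that 3 libraries of a group may or may not stem from separate litters. The p-values of limma, a linear model, use the spread within groups over all 30 libraries, and not that of these 6 alone. The other libraries are of E17 (embryonic day 17), P7 and P60 offspring. They enter below in that spread and where P20 was set against another age.

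Microglia are the resident macrophages of the brain. They enter it from the yolk sac before birth and, in the first postnatal weeks, pass from a dividing, phagocytic state to the ramified adult state that senses its surroundings through receptors such as P2RY12 and CX3CR1. Poly(I:C) is sensed by TLR3 and the RIG-I-like receptors, which turn on type I interferons and the genes these control, among them the MHC class I genes that present antigen on nearly all cells.

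RNA abundance was given as TPM, a value scaled for transcript length and for the total of the library, for 14225 transcripts of 13483 genes. Differences are those of the mean log2(TPM + 1), MIA minus Saline, and for weakly expressed transcripts they understate the fold. A call is an adjusted p under 0.05 in limma. From the steps between low values, 9090000 to 9630000 counted reads were estimated for the Saline libraries and 10010000 to 10940000 for the MIA libraries. Xist, which silences an X chromosome in female cells, was at 172 to 193 TPM in all 6 libraries, and the 4 Y-linked genes measured summed to at most 0.59 TPM. By these transcripts all 6 libraries had a female pattern, so sex did not separate the groups. The paper describes male and female brains at this age.

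The cells were microglia by their markers in each library. P2ry12, the purinergic receptor that steers microglial processes towards ATP, was at 3841, 4538 and 2477 TPM in Saline libraries 1 to 3 and at 4803, 5028 and 3908 TPM in MIA libraries 1 to 3. The groups overlapped, with Saline library 3 the lowest. The log2 difference was 0.38 for P2ry12 (SE 0.23, 95% interval −0.11 to 0.86, unadjusted p = 0.123, limma). Tmem119, a membrane protein of mature microglia, differed by 0.10 (95% interval −0.37 to 0.56), the fractalkine receptor Cx3cr1 by 0.14 (−0.25 to 0.53) and the growth factor receptor Csf1r by 0.22 (−0.18 to 0.61), and with quantile normalization all 3 turned to between −0.05 and −0.01. None of these passed the test, and all intervals included 0.

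In the comparison of MIA with Saline at P20, no transcript of 14225 was called by limma with Benjamini-Hochberg adjustment (0%). At an unadjusted p under 0.05 the fit of all 30 libraries had 457 (3.21%), fewer than the share of 0.05 expected when nothing differs. Of these 160 were higher in MIA (1.12% of all transcripts) and 297 were lower (2.09%). With other settings the count of 457 ran from 269 to 833, as given at the end. All 3 MIA libraries were above all 3 Saline libraries for 492 transcripts (3.46%) and below them for 886 (6.23%). Such full separation, in either direction together, is expected for a share of 0.1 when the libraries are exchangeable. The excess on the lower side went with a shift of the whole table, as the median difference over all transcripts was −0.05 and 39.6% of transcripts were above 0. With median-ratio scaling of the libraries the split at an unadjusted p under 0.05 was 222 higher and 194 lower (53.4% higher, against 35% in the TPM as deposited), and with quantile normalization it was 255 and 214 (54.4% higher). Full separation was not counted again after scaling. A difference in scale and a broad difference in expression cannot be told apart here. The differences were small where expression was high. Among 1984 transcripts with a mean of at least 100 TPM, 0 were higher by more than 1 on the log2 scale, 2 were lower by more than 1, and 1.71% differed by more than 0.5 in either direction.

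**Figure D1:**
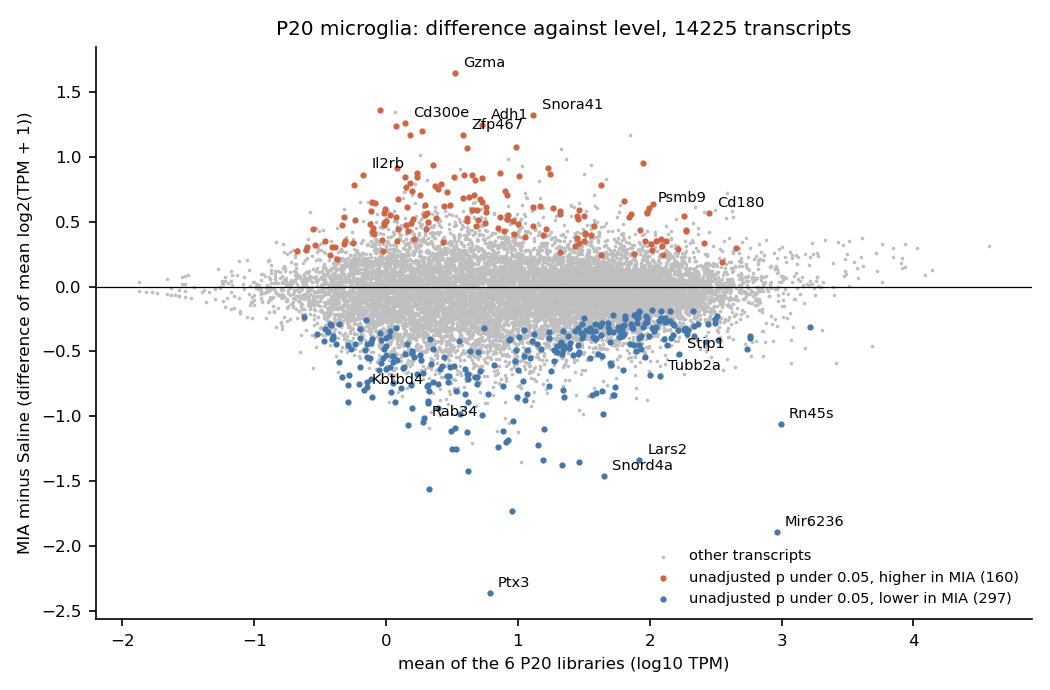
The difference between MIA and Saline at P20 (vertical axis, difference of mean log2(TPM + 1)) is plotted against the mean of the 6 libraries (horizontal axis, log10 TPM), 1 point per transcript, with the 160 higher and 297 lower transcripts of an unadjusted p under 0.05 in color. Large differences lie mostly at low expression, and the exceptions below 0 at high expression are Mir6236, Rn45s and Lars2.

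The smallest p-value belonged to Kbtbd4 (NM_025991, chromosome 2, 90904740 to 90910561 of GRCm38.p6), which encodes a BTB and kelch domain protein of the type that hands substrates to ubiquitin ligases. It was at 0.92, 0.93 and 1.55 TPM in Saline and at 0.11, 0.23 and 0.31 TPM in MIA. All MIA values were below all Saline values, by −0.80 on the log2 scale (SE 0.15, unadjusted p = 2.75e-05, adjusted p = 0.391, limma with Benjamini-Hochberg). These values rest on an estimated 1 to 13 reads per library, and with a mean under 1 TPM the transcript was named after its values were seen.

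The transcripts that follow are the 12 of smallest p in each direction with a mean of at least 1 TPM, and all of them have an adjusted p of 0.9999 in limma. On the lower side only Tubb2a, Mrpl32 and Mir6236 were above 50 TPM in any MIA library or Saline library, Creb3l1 and AI662270 were between 5.05 and 17.6 TPM, and Ptx3 reached 34.1 TPM in a single library. Tubb2a (NM_009450, chromosome 13, 34074278 to 34078008), a beta-tubulin of growing cell processes, was at 134, 101 and 213 TPM in Saline and 96.7, 87.9 and 80.1 TPM in MIA. Its difference was −0.69 (SE 0.17, unadjusted p = 0.000585, limma), on 515 to 1200 estimated reads per library, and the groups did not overlap, with Saline library 3 the highest. Creb3l1, a transcription factor held in the endoplasmic reticulum membrane until it is cleaved, was at 12.2, 9.83 and 17 TPM in Saline and 7.85, 7.14 and 5.05 TPM in MIA, a difference of −0.85 (SE 0.24). Mrpl32, a protein of the mitochondrial ribosome, was at 59.8, 53.1 and 50.6 TPM in Saline and 42.0, 42.6 and 45.1 TPM in MIA. That difference was only −0.32, yet its SE was 0.10 and it rested on 467 to 573 reads per library, which makes it among the best counted of these transcripts. AI662270, a long non-coding RNA, was at 10.3, 17.6 and 17.1 TPM against 6.70, 7.42 and 8.49 TPM.

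The other transcripts on this side were near the lower end of the range. Rab34, a small GTPase of cilia and of lysosome positioning, was at 3.66, 2.23 and 2.91 TPM in Saline and at 0.95, 0.80 and 0.91 TPM in MIA for the transcript NM_001159482. Its difference of −1.04 (SE 0.26, unadjusted p = 0.000446, limma) rested on 4 to 16 reads per library and became −0.46 (unadjusted p = 0.101) when both Rab34 transcripts were summed. For Aldoa, a glycolytic enzyme, a rare transcript, NM_001177308, gave −0.89, which became −0.48 when summed (unadjusted p = 0.0833). Akr1b8, an aldo-keto reductase, had −0.93, and Qpct, which cyclizes N-terminal glutamine, −0.81. Kctd6, an adaptor of a ubiquitin ligase, had −0.83 and summed −0.55, and Azi2, an adaptor of the antiviral kinase TBK1, −0.68 and summed −0.30 (unadjusted p = 0.0903). Ptx3, a secreted pattern recognition protein that inflammatory signals induce, had the largest difference at −2.36 (SE 0.72). It was at 1.80, 0.58 and 34.1 TPM in Saline and at 0, 0.14 and 0 TPM in MIA, so that 1 Saline library carried its size.

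The transcripts on the higher side were also of low expression. Zfp467, a zinc finger transcription factor, was at 3.26, 2.60 and 0.59 TPM in Saline and 5.70, 5.41 and 5.42 TPM in MIA. The difference was 1.17 (SE 0.29, unadjusted p = 0.000553, limma), on 1 to 13 reads per library. Cd300e, an activating receptor of monocytes and macrophages, was at 0.32, 1.00 and 0 TPM against 2.96, 2.26 and 1.79 TPM, a difference of 1.26 (SE 0.37). Adh1, an alcohol dehydrogenase, was at 4.48, 1.46 and 2.79 TPM against 8.05, 8.66 and 6.72 TPM, a difference of 1.24 (SE 0.39). Of each of these, all MIA libraries were above all Saline libraries. Nmral1 (0.80), Asb10 (0.77), Agbl5 (0.73), 4930481A15Rik (0.71), Plpp1 (0.68), the ubiquitin-like modifier Sumo2 (0.84) and Sertad2 (0.43) completed the group apart from Gzma and Snora41, which are taken up below, and none of their libraries exceeded 10 TPM. Summed over transcripts, Plpp1 was at 0.32 (unadjusted p = 0.143), Agbl5 at 0.53 and Sertad2 at 0.33. Among transcripts of higher expression, 2 were picked after their values were seen. Cd180, a Toll-like receptor homolog that tunes lipopolysaccharide sensing, was at 228, 265 and 186 TPM in Saline and 378, 367 and 263 TPM in MIA, a difference of 0.56 (SE 0.19, unadjusted p = 0.00774) with 1 overlapping pair of libraries. Acads, an enzyme of fatty acid oxidation in mitochondria, was at 113, 115 and 102 TPM against 128, 143 and 138 TPM, with no overlap and a difference of 0.31 (SE 0.10).

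**Figure D2:**
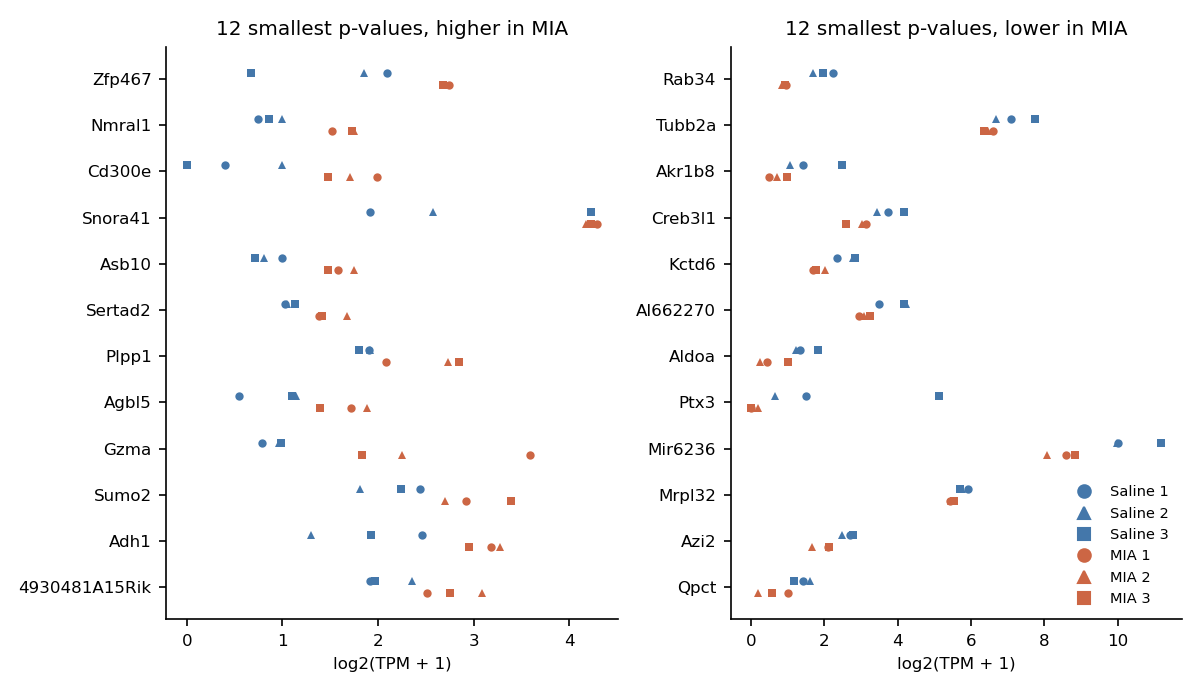
Levels in the 6 P20 libraries (horizontal axis, log2(TPM + 1)) are shown for the 12 transcripts of smallest p higher in MIA (left) and lower in MIA (right), with Saline in blue, MIA in orange and the library number as the shape. The groups do not overlap except in Snora41, where Saline library 3 lies among the MIA libraries, and Ptx3 and Mir6236 show how far Saline library 3 stood above the other Saline libraries.

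Snora41 (NR_028558, chromosome 1, 63179023 to 63179135), a small nucleolar RNA that guides the modification of ribosomal RNA, was at 2.78, 4.94 and 17.7 TPM in Saline and 18.6, 17 and 17.6 TPM in MIA. On so short a transcript these are 1 to 9 estimated reads per library. The difference was 1.32 (SE 0.39), and without Saline library 3 it was 1.98 (SE 0.31, adjusted p = 0.0273, limma with Benjamini-Hochberg), which made it the single transcript that any of the 6 fits with 1 P20 library left out called. Small nucleolar RNAs lack a poly(A) tail, and the libraries were made from poly(A) RNA.

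Mir6236 (NR_105744) was at 1036, 1003 and 2348 TPM in Saline and 383, 271 and 456 TPM in MIA, a difference of −1.89 (SE 0.59, unadjusted p = 0.00368, limma) with no overlap. The table counts it as a gene of 123 bases, so that its level is that of reads over the precursor and no measure of the mature microRNA. The mature sequence is shown because its name would otherwise be read as the molecule measured, and its seed, the bases that pair with targets, is in capitals. It lies on the plus strand of chromosome 9 from 110281353 to 110281371 in RefSeq's GRCm38.p6 annotation.
mmu-miR-6236: gCCGUCGCcggcagucagg
Rn45s, the precursor of ribosomal RNA, was at 812, 1356 and 1886 TPM in Saline and 577, 649 and 611 TPM in MIA (difference −1.06, SE 0.47). Lars2, the mitochondrial leucyl-tRNA synthetase, was at 88.8, 99.9 and 176 TPM in Saline and 44.8, 41.7 and 49.4 TPM in MIA (difference −1.34, SE 0.45). The 3 transcripts were each lower in all MIA libraries than in any Saline library, and each was highest in Saline library 3. Whether reads of ribosomal RNA left over from poly(A) selection account for the Lars2 and Mir6236 values was not tested. The small nucleolar RNA Snord4a, at 76.4, 59.8 and 57.2 TPM against 33.7, 31.4 and 10.7 TPM, was likewise lower (−1.46), on 3 to 17 reads. Rn45s, Lars2 and Snord4a were named after their values were seen.

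Saline library 3 stood apart in more than these. Among transcripts with a mean of at least 10 TPM, it held 49 at over 2 times the level of every other P20 library, against 18 in Saline library 1, 0 in Saline library 2 and 1 or 2 in each MIA library. The 49 were not sorted by function. From them 3 were picked that are induced when myeloid cells are activated, and these do not stand for the rest. Il1b, an inflammatory cytokine, was at 219, 343 and 811 TPM in Saline and 331, 317 and 354 TPM in MIA. Tnf, another such cytokine, was at 16.4, 27.0 and 69.2 TPM in Saline and 27.0, 23.5 and 32.7 TPM in MIA. Ccl12, a chemokine for monocytes, was at 249, 301 and 1227 TPM in Saline and 350.02, 305 and 237 TPM in MIA. The MIA libraries lay close to Saline libraries 1 and 2 in all 3, and without Saline library 3 the differences turned from −0.24 to 0.28 for Il1b, from −0.19 to 0.37 for Tnf and from −0.62 to 0.10 for Ccl12. Rrp12, which helps export ribosomal subunits from the nucleus, was at 13.8, 13.4 and 43.0 TPM against 11.4, 12.8 and 13.1 TPM. Serpina3n, an acute phase protease inhibitor, was at 10.7, 4.55 and 61.0 TPM in Saline and 5.78, 4.75 and 5.38 TPM in MIA. Both were high in Saline library 3 alone, and both were named after their values were seen.

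The Saline libraries were also less alike in general. The mean distance between libraries over all transcripts (Euclidean, on log2(TPM + 1)) was 56.7 within Saline, 40.2 within MIA and 49.6 between the groups. Among 7898 transcripts with a mean of at least 10 TPM, the median SD on the log2 scale was 0.187 in Saline and 0.111 in MIA, and 72.7% had the larger SD in Saline. Single distances between a MIA and a Saline library ran from 39.8 to 58.6, within the range that libraries of 1 group spanned, 35.8 to 63.2.

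Gene lists were compared with the background of all transcripts, of which 5631 of 14225 were higher in MIA with a median difference of −0.05. No member of any list was called. Among the functional lists, antigen presentation by class I and the interferon response had the highest medians. Of the 17 MHC class I pathway transcripts, 16 were higher in MIA, with a median difference of 0.31. Psmb9, a subunit of the immunoproteasome that cuts peptides for MHC class I, was at 58.6, 109 and 71.7 TPM in Saline and 139, 120.1 and 97.4 TPM in MIA. Saline library 2 overlapped with MIA library 3, and the difference was 0.60 (SE 0.20, unadjusted p = 0.00589, limma). H2-T23, the non-classical class I molecule Qa-1 that NK cells read, was at 139.98, 192 and 151 TPM in Saline and 242, 215 and 191 TPM in MIA, with a difference of 0.43 (SE 0.21, unadjusted p = 0.0471). Together with Psmb9 it made up the 2 of 17 that had an unadjusted p under 0.05 on the higher side, beside 1.12% of all transcripts.

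The chain shared by all class I molecules, B2m, was at 4563, 6480.02 and 4390.3 TPM in Saline and 6315, 6440.4 and 6262 TPM in MIA. The MIA libraries were close together and Saline library 2 was as high as they were, so the difference of 0.32 had an interval from −0.08 to 0.73. The classical class I genes overlapped between the groups as well, with H2-D1 at 0.31 (SE 0.17) and H2-K1 at 0.27 (SE 0.20). Pdia3, a chaperone of class I loading, had the only difference below 0 (−0.02), which turned to 0.04 and 0.02 with the median-ratio and quantile scalings. With 1 P20 library left out, 14 to 17 of the 17 were higher and the median ran from 0.17 (without Saline library 1) to 0.37. At the other ages the medians of the list were −0.24 at E17, −0.15 at P7 and −0.14 at P60, and the difference between the effects at P20 and E17 was 0.94 for Psmb9 (SE 0.28, unadjusted p = 0.0028, limma) and 0.63 for B2m (SE 0.28, unadjusted p = 0.0335), with no call for either. Endothelial cells carry class I molecules too, and their markers, described below, were likewise higher in the MIA libraries.

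Of 45 transcripts of the interferon response and double-stranded RNA sensing, 35 were higher in MIA, with a median of 0.18, and 7 had all MIA libraries above all Saline libraries (beside 3.46% of all transcripts). Ifi27l2a, an interferon-induced membrane protein, was at 20.3, 28.3 and 20.3 TPM in Saline and 43.5, 32.6 and 29.5 TPM in MIA, a difference of 0.59 (SE 0.21, unadjusted p = 0.00901, limma). Sp100, a nuclear body protein, was at 13.1, 11.9 and 8.88 TPM against 22.3, 15 and 16.5 TPM, a difference of 0.62 (SE 0.24, unadjusted p = 0.0166). Ifi44 had the largest difference of the list at 0.99 (SE 0.52), with 7.57, 5.66 and 2.95 TPM in Saline and 15.8, 9.64 and 8.82 TPM in MIA. In all 3, MIA library 1 was the highest of the 6 libraries. Ifitm3, which blocks the entry of viruses, was at 206, 175 and 212 TPM against 295, 264 and 252 TPM (0.45, SE 0.25), and Bst2, which tethers budding viruses, at 276, 329 and 318 TPM against 424, 371 and 336 TPM (0.29, SE 0.16). Zbp1, a sensor of double-stranded nucleic acids, had the lowest value of the list (−0.66) in a transcript of at most 1.1 TPM in any library, and 0.06 with its transcripts summed. Without MIA library 1 the list had 27 of 45 higher and a median of 0.06, so a large part of its shift came with that library, and without MIA library 3 it had 38 of 45 and 0.38. At E17, P7 and P60 the medians were 0.01, −0.02 and −0.02.

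Interferon-responsive promoters carry repeats of GAAA, and the letters GAAANNGAAA were searched on both strands from 250 bases before to 50 after the gene start in RefSeq's GRCm38.p6 promoters. Among genes with a promoter available, they were found in 16 of 32 of the interferon list (50.0%) and 5 of 15 of the class I list (33.3%). The shares were 3.99% of all 27025 genes and 3.66% of the 10158 measured genes with a promoter. The stretches below are from B2m (chr2:122147540-122147565, plus strand), H2-T23 (chr17:36032808-36032833, minus strand), Ifit1 (chr19:34640777-34640802, plus strand) and Bst2 (chr8:71537585-71537610, minus strand), are written along the strand of the gene, and are shown because these 4 genes were among those higher in the MIA libraries without a call. Capitals mark the match, and in H2-T23 and Ifit1 it is on the opposite strand.
B2m: aagaacatGAAACTGAAAatgggaaa
H2-T23: cctactgcTTTCTCTTTCataaagac
Ifit1: ggcttcagTTTCACTTTCcagtctca
Bst2: cattccagGAAAATGAAActgaaagg
Such a match describes the sequence and does not show that a factor was bound there. Ifit1, an interferon-induced binder of foreign RNA, was at 14.3, 7.62 and 8.13 TPM in Saline and 19.96, 17.1 and 10.1 TPM in MIA, with overlap and a difference of 0.60 (SE 0.39).

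The remaining immune lists lay closer to the background. Complement had 12 of 16 transcripts higher (median 0.15), with 8 of 16 without Saline library 2 (0.10) and a median of 0.01 without Saline library 1, whereas the complement inhibitor Cd55 was at −0.62 (SE 0.30). MHC class II had 7 of 11 higher (median 0.13), and 4 of 11 without Saline library 1 (−0.04). H2-Ob, which tunes class II peptide loading, had 0.39 and the costimulatory ligand Cd80 had −0.11. For cytokines and chemokines the count was 8 of 29 higher with a median of −0.18, but 22 of 29 with a median of 0.27 without Saline library 3. Cxcl1, a chemokine for neutrophils, was at 38.8, 60 and 68.4 TPM in Saline and 27.6, 26.7 and 38.6 TPM in MIA (−0.81, SE 0.34, unadjusted p = 0.0247). Ccl9 went the other way with 152, 202 and 97.2 TPM against 176, 218 and 245 TPM (0.55, SE 0.25).

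Lists of microglial state and function showed small medians. Homeostatic microglial genes had 18 of 23 transcripts higher and a median of 0.13, with 16 to 19 higher when 1 library was left out and the lowest median, 0.06, without MIA library 2. Slc2a5, a fructose transporter that marks microglia, was at 282, 347 and 149.99 TPM in Saline and 363, 392 and 352 TPM in MIA (0.59, SE 0.34), and Olfml3 at 1840.1, 2150.3 and 1666 TPM against 2413, 2630.0 and 2189 TPM (0.36, SE 0.24). A rare transcript of Irf8, a transcription factor of the lineage, was the only one of the list with an unadjusted p under 0.05, at −0.38. Summed over its transcripts Irf8 turned to 0.25 (unadjusted p = 0.274). Disease-associated genes had 11 of 20 higher (0.01, but 9 of 20 and −0.01 with quantile normalization), with a rare Spp1 transcript at 0.54 and a rare Apoe transcript at −0.80. Phagocytosis and clearance genes had 15 of 34 (−0.02), and 20 of 34 with either scaling (0.03 and 0.02). There the engulfment factor Elmo1, at 117, 121 and 83.4 TPM against 130.03, 134 and 146 TPM (0.37, SE 0.16), stood opposite the scavenger receptor Msr1, at 9.33, 12.6 and 49.1 TPM against 8.63, 7.93 and 7.38 TPM (−1.09, SE 0.42). Msr1 was high in Saline library 3 alone. Lysosomal genes had 22 of 38 (0.03), with Glb1 at 0.45 and Gla at −0.59, and purinergic signaling and motility genes 18 of 28 (0.04), with Cd38 at −0.50. Mitotic genes had 21 of 31 (0.07), with Cdc20 at 0.41 and Cdt1 at −0.39. Immediate early genes had 19 of 36 (0.02), with Egr2 at 0.56 and Nr4a3 at −0.76, and synapse and growth factor genes 11 of 26 (−0.04, but 0.01 and 0.02 under both other scalings), with Mmp2 at 0.32 and Sema6d at −0.31. Leaving out 1 library turned the medians of 6 of these lists. Mitotic genes had 15 of 31 higher (−0.0035) and immediate early genes 16 of 36 (−0.11) without MIA library 3. Disease-associated genes had 9 of 20 (−0.06) and lysosomal genes 19 of 38 (−0.0027) without Saline library 1. Phagocytosis genes had 21 of 34 (0.08) and synapse genes 14 of 26 (0.02) without Saline library 3, and phagocytosis genes 20 of 34 (0.06) without MIA library 3.

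Of 28 heat shock and chaperone transcripts 4 were higher and 24 lower, with a median of −0.14, or with 7 higher and a median of −0.09 or −0.08 under the 2 scalings. On the lower side 4 had an unadjusted p under 0.05, beside 2.09% of all transcripts. Stip1, the co-chaperone that links HSP70 to HSP90, was at 205, 181 and 197 TPM in Saline and 166, 142 and 104 TPM in MIA. The groups did not overlap, and the difference was −0.52 (SE 0.18, unadjusted p = 0.00659, limma) on 878 to 1453 reads per library. Hsp90ab1, the constitutive cytosolic HSP90, was at 2073, 1552 and 1816 TPM against 1590.1, 1407 and 1371 TPM, a difference of −0.31 (SE 0.15). Ahsa1, which activates HSP90, was at −0.30 (SE 0.14), the mitochondrial co-chaperonin Hspe1 at −0.31 (SE 0.14) and the constitutive HSP70 Hspa8 at −0.42 (SE 0.22). Dnajb4 had the highest value of the list, 0.19, in a transcript under 1 TPM. Leaving out 1 library gave 3 to 11 of 28 higher, the most without Saline library 1, and medians from −0.29 to −0.07. At E17, P7 and P60 the medians of the list were 0.08, 0.19 and 0.21. For Stip1 the effect at P20 minus that at P60 was −0.79 (SE 0.25, unadjusted p = 0.00416, limma), without a call. The heat shock motif GAANNTTCNNGAA was found in 4 of the 21 genes of the list with a promoter available (19.0%). The shares were 0.662% of all genes and 0.61% of those measured, again among genes with a promoter. The match in Hspe1 is shown because that gene is 1 of the 4 of the list with an unadjusted p under 0.05 (chr1:55088056-55088084, plus strand, shared with the neighboring Hspd1).
Hspe1: ccgttctaGAACCTTCCGGAAggccccgc

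Cholesterol synthesis had 3 of 24 transcripts higher with a median of −0.14, but 14 of 24 and 0.04 without Saline library 1. Sqle, an early enzyme of the sterol branch, was at 134, 74.1 and 67.8 TPM in Saline and 79.7, 58.8 and 55.9 TPM in MIA (−0.45, SE 0.39), so Saline library 1 set that difference. Hsd17b7 was at −0.44, and a rarer transcript of Pmvk was at 0.33, which turned to −0.11 with both Pmvk transcripts summed. Hsd17b12, which elongates fatty acids and was named after its values were seen, was at 217, 180.2 and 221 TPM in Saline and 158, 163 and 172 TPM in MIA, with no overlap and a difference of −0.32 (SE 0.11). The genes of cell protrusion and neurite growth that the study drew from these same libraries had 12 of 49 transcripts higher and a median of −0.16, which is no independent evidence of a direction. Without Saline library 1 they had 24 of 49 and −0.03. Slc11a2, an iron transporter of that list, was at 20, 25.9 and 31.7 TPM against 17.2, 17.5 and 18.6 TPM (−0.49, SE 0.18).

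**Figure D3:**
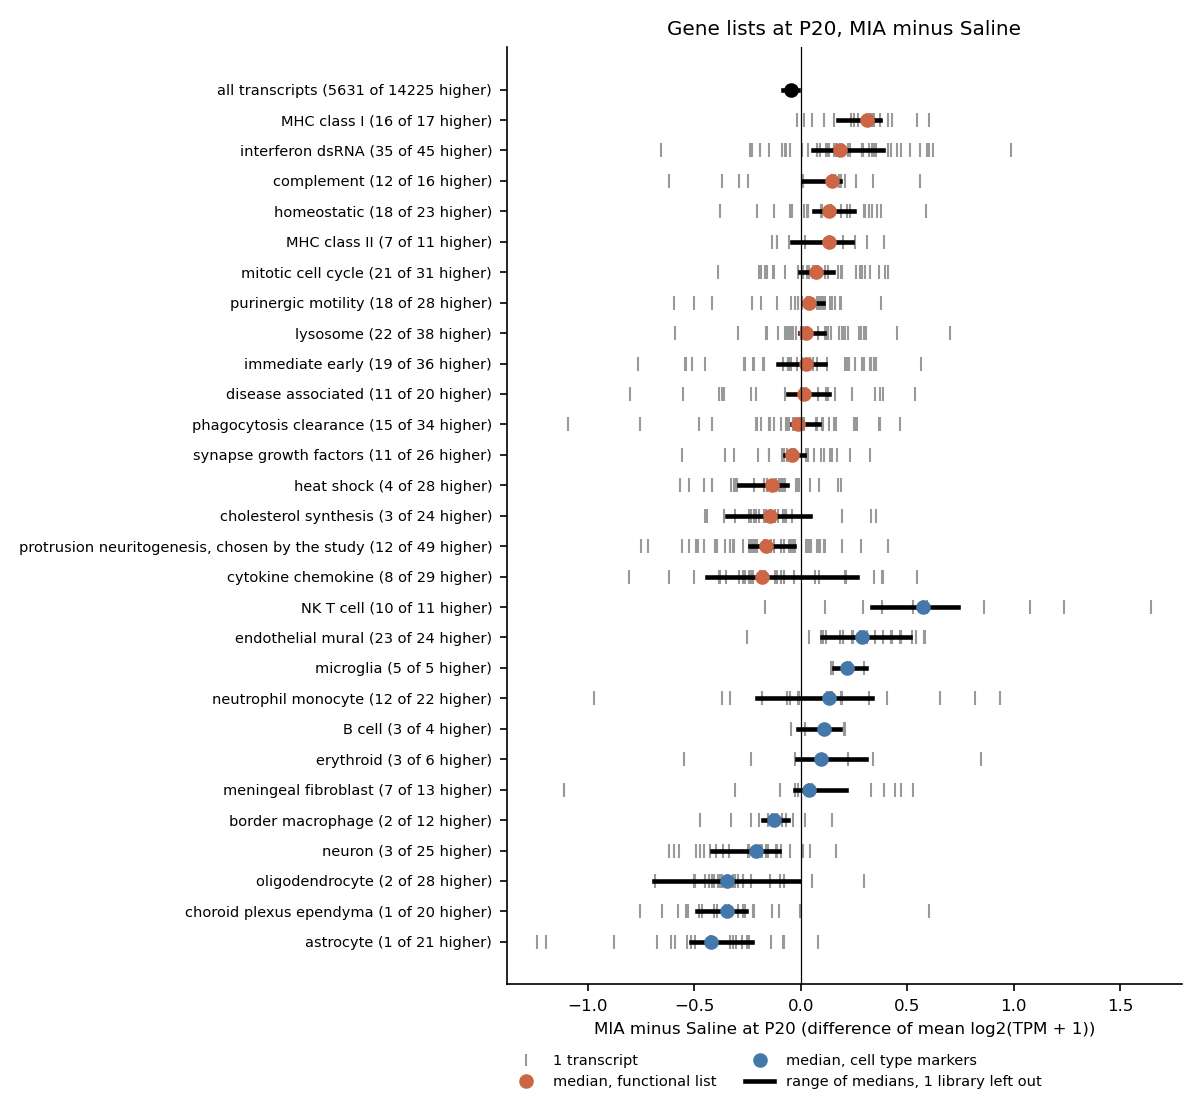
Each row is a gene list, each gray tick the difference of 1 transcript between MIA and Saline at P20 (horizontal axis, difference of mean log2(TPM + 1)), each dot the median, and each black bar the range of medians when 1 of the 6 libraries was left out. The MHC class I, NK and T cell and endothelial medians stay above 0 and the heat shock and astrocyte medians below it, whereas the bars of cytokines and of cholesterol synthesis cross 0.

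Bead isolation leaves RNA of other cells, and in bulk libraries fewer cells of a type and less RNA per cell cannot be told apart. Markers of oligodendrocytes made up 0.563% ± 0.297 of all TPM in Saline and 0.405% ± 0.0963 in MIA (SD, n = 3 each, exact permutation test, two-sided, p = 0.7, where 3 libraries against 3 allow no p below 0.1). By library the share was 0.888%, 0.492% and 0.308% in Saline and 0.516%, 0.352% and 0.347% in MIA, so Saline library 1 was far above the rest and Saline library 3 below all MIA libraries. Mag, a protein of the myelin sheath, was at 1549, 885 and 602 TPM in Saline and 904, 614 and 625 TPM in MIA, and Cldn11, the tight junction protein of myelin, at 2107, 1282 and 793 TPM against 1243, 859 and 850.3 TPM. Of 28 oligodendrocyte transcripts 26 were lower in MIA (median −0.34), but 15 of 28 without Saline library 1 (−0.01). That library thus carried more myelin RNA, and the sterol and protrusion lists, whose medians also turned towards 0 without it, moved with it. The part of oligodendrocyte RNA in those lists was not tested.

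Astrocyte markers were lower in 20 of 21 transcripts (median −0.42), and in 16 of 21 without Saline library 1 (−0.23). Clu was at 1830.5, 1265 and 1208 TPM in Saline and 1072, 867 and 878 TPM in MIA, and Sparcl1 at 3396, 1822 and 1650.2 TPM against 1995, 1614 and 1590.2 TPM. A rarer transcript of Slc1a2, a glutamate transporter, was at 13.9, 7.61 and 9.68 TPM in Saline and 5.30, 3.23 and 2.93 TPM in MIA (−1.24, SE 0.43, summed over transcripts −0.78). A rarer transcript of Gfap, the astrocyte filament, was at 10.8, 3.76 and 22.4 TPM in Saline and 3.12, 3.49 and 4.89 TPM in MIA (−1.20, SE 0.51, summed over transcripts −0.91). The Slc1a2 and Gfap transcripts were named after their values were seen. Summed over transcripts, the unadjusted p was 0.1257 for Slc1a2 and 0.1255 for Gfap (limma). All MIA libraries were below all Saline libraries for Clu and Slc1a2, while Sparcl1 and Gfap overlapped. Neuronal markers were lower in 22 of 25 (median −0.21), and in 16 of 25 without Saline library 1 (−0.10), with Slc17a7 at −0.57 and Camk2a at −0.34, and those of choroid plexus and ependyma in 19 of 20 (median −0.35), with Ttr at −0.46 and Clic6 at −0.48. Of the 5 microglial markers all were higher (median 0.22), but only 2 of 5 with quantile normalization (−0.01). They summed to 3.27% ± 0.386 of the TPM in Saline and 3.79% ± 0.216 in MIA (SD, n = 3 each, exact permutation test, p = 0.3), with C1qa, a subunit of complement C1q, at 0.15, which turned to −0.09 with quantile normalization. Border macrophage markers were lower in 10 of 12 (median −0.12, and −0.06 without Saline library 2), with Maf at 0.15 and Stab1 at −0.07, meningeal fibroblast markers higher in 7 of 13 (0.04, and −0.03 without Saline library 3), with Col1a2 at 0.39 and Igfbp2 at −0.10, and erythroid markers higher in 3 of 6 (0.10, and −0.02 without Saline library 3), with Car2 at −0.55 and Bpgm at −0.24.

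Endothelial and mural markers were higher in 23 of 24 transcripts, with a median of 0.29, and in 18 of 24 without Saline library 2 (0.10). Pltp was at 503, 331 and 241 TPM in Saline and 476, 473 and 549.8 TPM in MIA, and the tight junction protein Cldn5 at 608, 333 and 629 TPM against 568, 555 and 753 TPM. The smooth muscle genes Tagln, at 116, 101 and 114 TPM against 133, 153 and 173 TPM (0.46, SE 0.23), and Acta2, at 145, 125 and 118 TPM against 159, 176 and 226 TPM (0.52, SE 0.27), had all MIA libraries above all Saline libraries and were the 2 of 24 that did (beside 3.46% of all transcripts). Together these markers held 0.286% ± 0.0823 of the TPM in Saline and 0.367% ± 0.0518 in MIA (SD, n = 3 each, exact permutation test, p = 0.3). The interferon and class I lists were higher beside them, and the part of vascular RNA in those lists was not tested.

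Markers of lymphocytes and of blood myeloid cells were looked for as well, of which NK cells and myeloid cells carry CD11B. Of 30 genes that mark NK and T cells, 11 were in the table, 10 of these were higher in MIA, and the median was 0.57. Gzma, the granzyme with which NK and T cells kill targets, was at 0.72, 0.95 and 0.98 TPM in Saline and 11.0, 3.76 and 2.55 TPM in MIA, a difference of 1.65 (SE 0.52, unadjusted p = 0.00394, limma) on 2 to 37 reads per library. Gzmb, another granzyme, was at 0, 0.20 and 0 TPM in Saline and 5.74, 0.97 and 0.18 TPM in MIA. Il2rb, the receptor chain through which NK cells sense interleukins, was at 0.23, 0 and 0.32 TPM against 1.65, 0.82 and 1.02 TPM (0.86, SE 0.20, unadjusted p = 0.000223, adjusted p = 0.9999, limma with Benjamini-Hochberg), and Ncr1, an activating NK receptor, was at 0 in all Saline libraries and at 1.07, 0.19 and 0.34 TPM in MIA. Estimated reads per library were 0 to 31 for Gzmb, 0 to 26 for Il2rb and 0 to 6 for Ncr1. Gzmb, Il2rb and Ncr1 were named after their values were seen. In Gzma, Gzmb, Il2rb and Ncr1, MIA library 1 was the highest of the 6 libraries, which was also the library with the highest values of Ifi27l2a, Ifi44, Psmb9 and H2-T23. The part of lymphocyte RNA in those values was not tested. Klrd1, which pairs with NKG2 receptors, was at 7.63, 12.6 and 0.99 TPM against 9.68, 12.1 and 14.7 TPM, and Ccl5 at 13.6, 21.6 and 23.2 TPM against 36.5, 23.3 and 18.3 TPM, both with overlap. The list summed to 31.5, 45.7 and 33.5 TPM in Saline and 77.9, 50.8 and 45.8 TPM in MIA (exact permutation test on the share, p = 0.1, the smallest that 3 libraries against 3 allow, adjusted p = 0.6 over 14 lists), and with 1 library left out 9 or 10 of 11 were higher, with a median of 0.34 without MIA library 1.

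Neutrophil and monocyte markers differed more between library numbers than between treatments. They summed to 310, 805 and 430 TPM in Saline libraries 1 to 3 and to 398, 874 and 440 TPM in MIA libraries 1 to 3, so that library 2 of each group had the most and the MIA library was the higher one in all 3 pairs of the same number, where 3 pairs allow no p below 0.25. Of 22 transcripts 12 were higher (median 0.13), but 8 without Saline library 1 (−0.16) and 7 without MIA library 2 (−0.20), and the median was also below 0 without Saline library 3 (−0.0007). S100a8, a calcium-binding protein of neutrophils, was at 115, 331 and 133 TPM against 118, 348 and 165 TPM, and the granule protein Ngp at 54.5, 143 and 72.7 TPM against 50.1, 142 and 77.9 TPM. S100a8 was higher in MIA in all 3 pairs and Ngp in 1. B cell markers had 4 transcripts, 3 of them higher, and Cd79a and Cd79b stayed at or under 4.90 TPM in all 6 libraries.

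**Figure D4:**
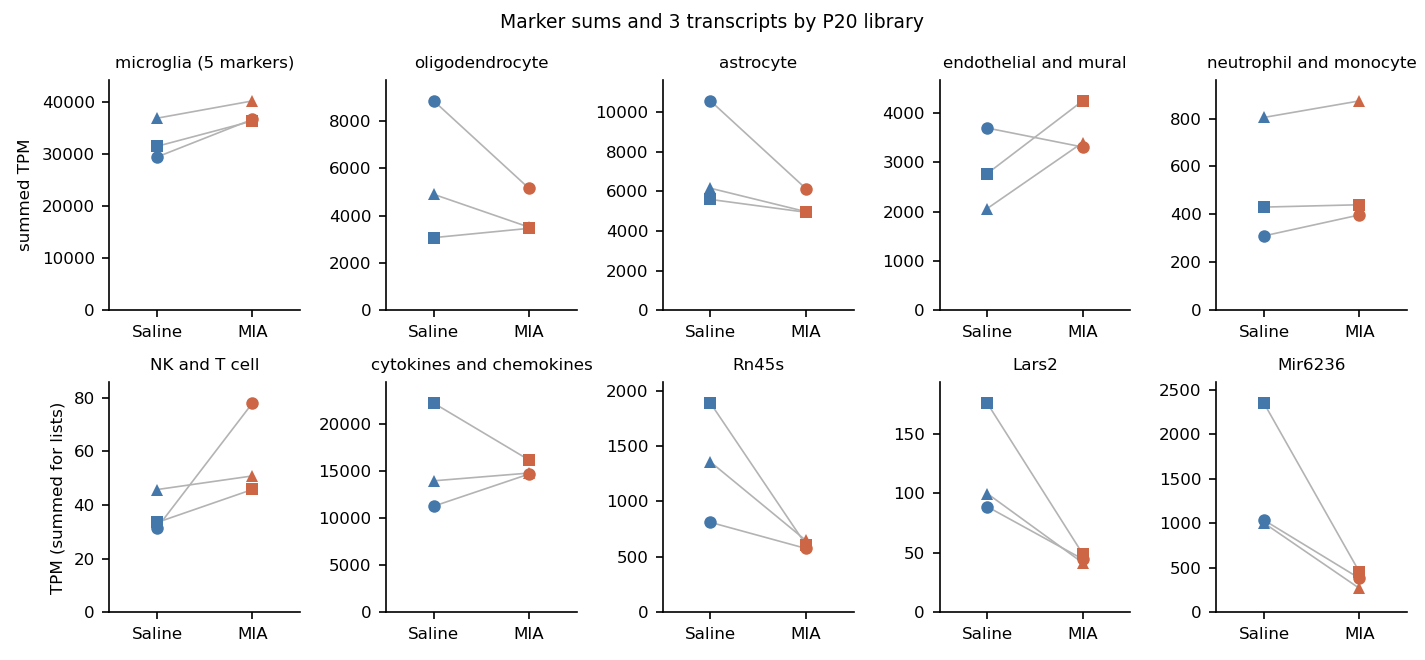
Summed TPM of the markers of 6 cell types and of the cytokine list, and the TPM of Rn45s, Lars2 and Mir6236, are drawn for each P20 library with Saline in blue and MIA in orange, and gray lines join libraries of the same number (circle 1, triangle 2, square 3). Oligodendrocyte and astrocyte RNA is highest in Saline library 1, neutrophil RNA in library 2 of both groups, cytokine RNA in Saline library 3 and NK and T cell RNA in MIA library 1.

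Whether MIA shifted the maturation of P20 microglia was asked with an axis drawn from other libraries, on which the mean of P7 Saline was set to 0 and that of P60 Saline + CTRL, on control chow, to 100. On this axis the P20 Saline libraries lay at 83.0 ± 6.09 (SD, n = 3) and the P20 MIA libraries at 84.5 ± 4.99 (SD, n = 3). By library the positions were 87.1, 85.8 and 76.0 in Saline and 88.7, 85.8 and 79.0 in MIA. The difference of 1.56 was smaller than the spread (exact permutation test, two-sided, p = 0.6), and it was −1.93 without Saline library 3 and −0.53 without MIA library 1. In pairs of the same number MIA lay higher by 1.58, 0.07 and 3.03, where 3 pairs allow no p below 0.25.

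**Figure D5:**
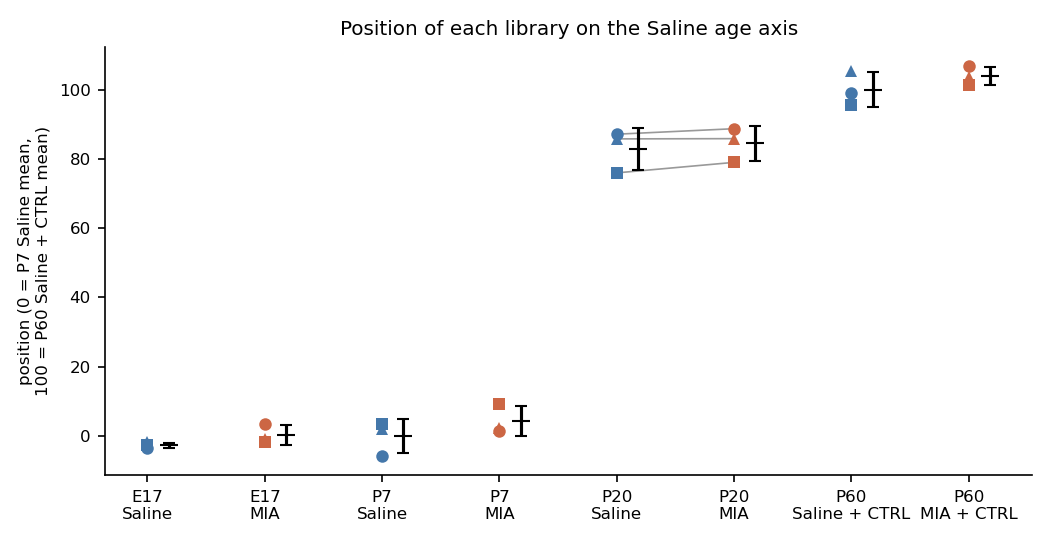
The position of each library between P7 Saline (0) and P60 Saline + CTRL (100) is plotted by age and treatment, with Saline in blue, MIA in orange, mean and SD in black, and lines between P20 libraries of the same number. The P20 libraries of both groups sit between 76.0 and 88.7 and overlap.

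The transcripts with an unadjusted p under 0.05 were set against the change from P7 to P60 in Saline microglia, which used none of the P20 libraries. In the fit of all 30 libraries these transcripts were fewer than expected when nothing differs, and none was called. Of the 297 that were lower in MIA, 25.3% were higher at P60 than at P7, and of the 160 that were higher in MIA, 61.9%, beside 45.2% of all transcripts. Among the 297, 130 had been called lower with age and 22 higher, and among the 160, 23 had been called lower and 61 higher. Of all 14225 transcripts, 3538 had been called lower with age and 2296 higher. The pattern on the lower side came with Saline library 3. Without it 137 transcripts were lower and 47.4% of these were higher at P60, close to the share of all transcripts, and of the 132 that were higher the share was 56.1%. With each of the other libraries left out, the shares were 20% to 32.8% on the lower side and 61.5% to 69.6% on the higher side. The deposited table also assigns transcripts to modules that the authors formed by clustering all 30 libraries. Of the 297 lower transcripts 147 were in the immature module, 3.14% of its 4681, beside 2.09% of all transcripts, and of the 160 higher ones 54 were in the adult module, 1.65% of its 3276, beside 1.12%. The smaller module named REP-AM had shares of 2.65% lower and 2.38% higher, the latter above that of the adult module. Tubb2a and Stip1 are among the lower transcripts of the immature module, and Zfp467 and Gzma among the higher ones of the adult module. Gzma is on the list of NK and T cell markers, as are Il2rb and Gzmb, which the adult module also holds. The part of lymphocyte RNA in that module was not tested. P20 libraries took part in the clustering, so the modules are no independent measure.

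At the other ages the same contrast called no transcript either, with 585 at an unadjusted p under 0.05 at E17, 335 at P7 and 256 at P60 (limma). Differences between the effects were tested by interaction, where a share of 0.05 is expected at this threshold when nothing differs. The effect at P20 minus that at E17 had 0 calls and 553 transcripts at an unadjusted p under 0.05 (3.89%), that at P20 minus P7 had 0 and 452 (3.18%), and that at P20 minus P60 + CTRL had 0 and 473 (3.33%). Across all transcripts the effect at P20 correlated with that at E17 at r = −0.14, at P7 at −0.10 and at P60 at −0.28, which is a description over transcripts that share their libraries within each age.

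For each interaction the 3 smallest p-values were taken among transcripts with a mean of at least 1 TPM over all 30 libraries, which leaves out Kbtbd4. Against E17 they were those of Rab34 (−1.53, SE 0.36, unadjusted p = 0.000302, limma), the non-coding AA465934 (−2.19, SE 0.54) and Ptges2 (−0.66, SE 0.18). Ptges2, a prostaglandin E synthase, was at 32.1, 27.0 and 32.5 TPM in P20 Saline and 27.0, 23.5 and 21.3 TPM in P20 MIA, a difference of −0.34, while at E17 the difference was 0.32. Against P7 they included Gtf3c6, a subunit of the RNA polymerase III factor TFIIIC (−0.59, SE 0.16, unadjusted p = 0.00104), and a transcript of Lmo2, a hematopoietic cofactor (1.04, SE 0.30). Gtf3c6 was at 68.2, 56.1 and 66.7 TPM in P20 Saline and 49.3, 54.5 and 48.8 TPM in P20 MIA, with a difference of −0.31 at P20 and 0.28 at P7. Against P60 they were Snora41 (2.45, SE 0.54, unadjusted p = 0.000154), Tspan4, a tetraspanin (1.33, SE 0.31), and the rare Apoe transcript (−1.41, SE 0.38). Snora41 was called in this interaction without Saline library 3 (3.11, SE 0.42, adjusted p = 0.00238, limma with Benjamini-Hochberg). For Tspan4, the transcript NM_001252588 was at 5.78, 9.18 and 7.22 TPM in P20 Saline and 11.8, 13.5 and 7.81 TPM in P20 MIA, with overlap, and summing its 2 transcripts reduced the P20 difference from 0.51 to 0.31.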

How the data were processed

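RNA-seq of CD11B-isolated microglia was analysed in the 6 P20 libraries, within a fit of all 30. The authors made non-stranded poly(A) libraries, read 1 end, aligned to mm10 with Rsubread, counted with featureCounts and retained genes by CPM. The deposited unit is TPM, computed by the authors with a formula not given in the sources used here, beside a module column. Non-stranded counting leaves overlapping antisense genes, near-identical copies and transcripts of 1 gene uncertain. The authors' own tests were run on counts, which were not used here.

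From the TPM, log2(TPM + 1) was fitted with limma 3.58.1 in R 4.3.3, with 10 groups in 1 model, a mean-variance trend and Benjamini-Hochberg adjustment over 14225 transcripts at 0.05. No value filter was applied. Interactions compared the MIA effect at P20 with those at E17, P7 and P60 + CTRL. Exact permutation tests over the 10 splits are two-sided. The scripts were tested on simulated data. Coordinates and promoters are RefSeq's (GRCm38.p6). For coordinates 14207 transcripts (99.87%) matched, and promoters were available for 10158 of the 13483 genes measured. Estimated reads used GENCODE lengths, found for 98.5% of transcripts. In each library 65.0% to 67.5% of low values came within 0.15 of a whole read, against 30% if evenly spread, so no count test was run on them, and single read numbers are approximate. Depth is thus estimated and not known. Figures used Python 3.11.15 and matplotlib 3.10.9.

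Named were any transcripts called, the 12 of smallest p per direction with a mean of at least 1 TPM, the member of smallest p per direction of each functional list, the 2 most abundant members of each marker list, P2ry12, Tmem119, Cx3cr1, Csf1r and sex-linked genes, and the 3 of smallest p per interaction with a mean of at least 1 TPM over all 30 libraries. A few that this rule names are not reported here. Others were chosen after their values were seen, and not every one of them is marked so where it is named. The members and lists were chosen with earlier results of these data known. Same-numbered P20 libraries deviated together (r = 0.25, 0.12 and 0.14, others −0.18 to 0.02). Since every pair was over 0.1, pairing by number was tried as an alternative. Deviations within a group sum to 0, so these correlations are not independent. No label says what a number marks, and the main fit does not use the numbers. Alternatives were a pseudocount of 0.1, a filter at a mean of 1 TPM, median-ratio scaling, quantile normalization, no trend, the replicate block, only the groups compared, array weights, sums per gene and each library left out.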

Additional observations from a re-analysis of the deposited data

How the results depend on the processing

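The count of 0 transcripts called at P20 held under every alternative except 2 settings. It was 1 without Saline library 3 (Snora41), and 457 if the unadjusted p is used as the threshold. That count of 457 at an unadjusted p under 0.05 was 833 with array weights (smallest adjusted p = 0.204) and 658 when only the P20 groups were fitted. With 1 library left out it ran from 269 (without Saline library 3) to 769 (without Saline library 2), with 274 without MIA library 2. Same-numbered P20 libraries deviated together, so a replicate block was also fitted, though no label says that the numbers mark pairs. It gave 554 (186 higher, 368 lower, smallest adjusted p = 0.438), and it changed no other call. Summed per gene, 416 of 13483 genes had an unadjusted p under 0.05. For the interactions the counts with 1 library left out ran from 210 (without E17 MIA library 1) to 2296 (without E17 MIA library 2) against E17, from 279 (without P7 MIA library 3) to 751 (without P7 Saline library 3) against P7 and from 287 (without P60 Saline + CTRL library 3) to 1044 (without P60 Saline + CTRL library 2) against P60. Calls ran from 0 to 1 against P60 and stayed at 0 against E17 and P7. The difference in position on the age axis, MIA minus Saline, ran from −1.93 to 4.32 with 1 library left out, and the difference of the oligodendrocyte share from −0.285 to 0.005435 percentage points. Of 115 transcripts whose difference is given, 16 changed sign in at least 1 of the alternatives, as 22 of 1718 values did. With quantile normalization these were Csf1r (−0.0136), Cx3cr1 (−0.0483), Tmem119 (−0.0104), C1qa (−0.0885) and Pdia3 (0.0212), with median-ratio scaling Pdia3 (0.0367), and with transcripts summed per gene Irf8 (0.254), Zbp1 (0.0611) and Pmvk (−0.111). With 1 library left out, the lowest and highest values were −1.05 and 0.101 for Ccl12, −0.658 and 0.285 for Il1b, −0.640 and 0.367 for Tnf, −0.0401 and 0.729 for Pmvk, −0.641 and 0.0497 for Camk2a, −0.246 and 0.0422 for Cd80, −0.0261 and 0.243 for C1qa, −0.386 and 0.0223 for Bpgm, −0.160 and 0.011 for Stab1, −0.189 and 0.0068 for Igfbp2 and −0.0918 and 0.0269 for Pdia3. The cause was not tested. With 3 libraries a group, the median SE over transcripts was 0.214, so small differences of single transcripts could not be resolved, and transcripts of a few reads are limited by depth.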
